A study of Homo sapiens with 4 samples.

Results

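The comparison described here is RNA abundance after ATO against RNA abundance without it, read as the difference between 2 of the 4 samples of the series. LN229 is an established human glioblastoma cell line. The ATO total RNA sample came from LN229 cells kept in 5 µM ATO for 6 h, and the untreated total RNA sample came from LN229 cells grown without it. Both cultures were in serum-containing DMEM, both lysates were made in hypotonic, cycloheximide-containing buffer, and no other treatment or genetic change is labelled for either. The other pair of samples holds RNA from polysomes of ATO-treated and untreated cells and serves here only for values set side by side. The labels do not spell ATO out; it commonly stands for arsenic trioxide. Each group is 1 sample, with technical triplicates already pooled by the submitters. All differences below therefore stand without replicate error or test, and precision is limited by the small number of arrays.

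Trivalent arsenic binds pairs of cysteine thiols. In other cell types it is known to unfold proteins and call up heat shock factors, and to modify KEAP1 so that NRF2 accumulates. There it is also known to start phosphorylation of the translation factor eIF2α and so the ATF4 programme. Further known effects there are to displace zinc from proteins, which metallothioneins and zinc exporters answer, and to bind PML and drive its modification with SUMO. The genes of these pathways on the chromosomes analysed were therefore read as groups, with cell cycle, translation, mitochondrial and non-coding RNA genes beside them. Genes on other chromosomes were not read, so a group can cover only part of its pathway.

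Of 65528 probe sets in the array table, which cover chromosomes 1 to 8 and some of 9, 16127 carried exactly 1 gene symbol. They gave 7743 protein-coding genes. Those whose mean log2 value over the 4 samples reached 7.80 are called past the filter and numbered 3872, beside 807 named genes of other types. Median log2 values over all probe sets were 4.25 with ATO and 4.26 untreated, and over coding genes past the filter 11.03 with ATO and 11.04 untreated. The title of the ATO sample says total RNA, but its source name says polysomal, and it was grouped by title. Its correlation over all probe sets was 0.991 with the untreated total sample and 0.987 with the ATO polysomal sample (Pearson's r). RN7SK, a nuclear RNA that is not translated, read 19.02 in that sample and 19.08 in untreated total RNA, against 16.79 in ATO polysomal RNA and 16.56 in untreated polysomal RNA. By these values the sample sits with total RNA. Of 14 measured genes chosen as typical of glioma lines 12 were past the filter, where 3872 of all 7743 coding genes were. Among the 12 was SPARC, at 17.92 with ATO and 17.80 untreated. The epithelial and endothelial markers (0 of 6 and 0 of 5 past the filter) were dim. Of the blood markers 2 of 11 were past it, CD74 at 17.51 with ATO and 17.63 untreated and HLA-DRA at 17.10 with ATO and 17.00 untreated, while the leukocyte marker PTPRC read 4.45 with ATO and 4.08 untreated. The neuronal genes GAD1 and SV2A (2 of 6) and the muscle actin ACTA1 (1 of 11 liver and muscle markers) were also past it.

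Abundances in the 2 samples were close. Differences, ATO minus untreated on the log2 scale throughout, had a median of -0.02 and an SD across the 3872 coding genes of 0.175, with 92.6% of genes within 25% and 99.5% within 1.5-fold of each other. The 1.5-fold threshold is the one in the series' design text, and the values are not plain log2 intensities, since some exceed 16, so a fold is a fold on that scale. Coding genes over 1.5-fold higher with ATO numbered 4 (0.103%), those over 1.5-fold lower 14 (0.362%), and none was 2-fold apart either way. A lower threshold of 0.322 on the log2 scale, which is 25% higher or 20% lower on the scale of the values, left 101 genes above it (2.61%) and 184 below -0.322 (4.75%). That split leaned on the centring. After subtraction of a loess trend on mean level the numbers were 141 and 143, and with samples centred on their medians 125 and 151. Of all genes, 1691 lay above 0 (43.7%) and 2092 below it (54%).

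Large differences were mostly found among dim genes. Coding genes past the filter were divided into 4 equal groups by mean level. In the dimmest group the SD was 0.221 and 15.6% were beyond 0.322 in either direction, whereas in the brightest group the SD was 0.125 and 1.55% were. Of the 18 genes over 1.5-fold apart, 11 were in the dimmest group and 1 in the brightest. Below the filter the SD was 0.267 and 20.2% of 3871 genes were beyond 0.322. A second yardstick came from the 12 genes with 2 probe sets past the filter, whose probe sets differed in their ATO minus untreated value by a median of 0.255, with the same sign in 5 of 12. The polysomal pair, which shares no sample with the total pair, gave 10 coding genes (0.258%) more than 1.5-fold higher with ATO and 34 (0.878%) more than 1.5-fold lower. Of all coding genes 51.2% had the same sign in both pairs. Among the 101 genes above 0.322 in total RNA, 48 were also above 0 in polysomal RNA and 3 also above 0.322 there. Among the 184 below -0.322, 106 were also below 0 and 25 also below -0.322. The polysomal pair had 4.36% of coding genes above 0.322 and 7.90% below -0.322.

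**Figure D1:**
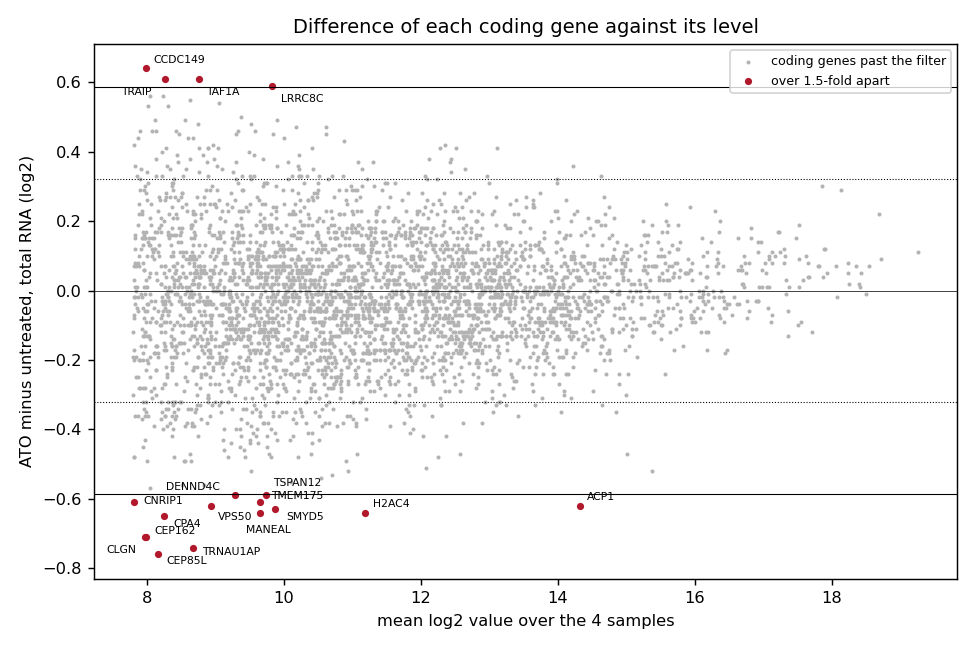
ATO minus untreated log2 difference in total RNA (vertical axis) against the mean log2 value over the 4 samples (horizontal axis) for the 3872 coding genes past the filter. Solid lines mark 1.5-fold and dotted lines 0.322 and -0.322; the 18 named genes beyond 1.5-fold sit mostly at the dim end, with ACP1 alone in the brightest of the 4 level groups.

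The 4 genes over 1.5-fold higher with ATO were of low or middling level. CCDC149, a coiled-coil protein gene, read 8.02 with ATO and 7.38 untreated, so that its untreated value lies below the filter level. TAF1A, a subunit of the selectivity factor that starts ribosomal RNA transcription by RNA polymerase I, read 9.02 with ATO and 8.41 untreated. TRAIP, a ubiquitin ligase of the replication stress response, read 8.47 with ATO and 7.86 untreated, and LRRC8C, a subunit of volume-regulated anion channels, read 9.90 with ATO and 9.31 untreated. The difference for TAF1A was 0.61, equal to that of TRAIP, and in polysomal RNA these genes stood at -0.03 and 0.05. None of the 4 was beyond 0.322 in polysomal RNA.

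The next 16 highest genes differed by 0.46 to 0.56. They included UBA6, an activating enzyme for ubiquitin, at 8.37 with ATO and 7.81 untreated, and the cell surface receptors BOC (8.45 with ATO, 7.89 untreated) and DNER (9.0 with ATO, 8.45 untreated), of hedgehog and Notch signalling. DHX16, a splicing helicase, read 9.69 with ATO and 9.19 untreated. Regulators of NF-kB signalling appeared among these 16 with TIFA, an adaptor upstream of the pathway (8.55 with ATO, 8.06 untreated), and NFKBIZ, a nuclear IκB protein (10.33 with ATO, 9.86 untreated). KLHL2, a substrate adaptor of a cullin ubiquitin ligase, was the brightest, at 10.65 with ATO and 10.18 untreated. The others were CCDC125, PTPDC1, the transcription factor gene AFF3, FAM133B, ARMC9, ERICH1, CSRNP1, the mitochondrial nucleotide carrier SLC25A36 and the quinone reductase NQO2. Of the 20 highest genes 8 were above 0 in polysomal RNA and none was above 0.322 there, while TIFA was at -0.55.

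On the low side, CEP85L, a centrosomal protein, read 7.53 with ATO and 8.29 untreated, a difference of -0.76 and the lowest of all coding genes past the filter. TRNAU1AP, which associates with the selenocysteine tRNA, read 7.89 with ATO and 8.63 untreated. CEP162, a centriole and cilium base protein, read 7.77 with ATO and 8.48 untreated, and CLGN, a chaperone of the endoplasmic reticulum best known from testis, 7.59 with ATO and 8.30 untreated. For CEP85L, CEP162 and CLGN, and also for CPA4 (7.79 with ATO, 8.44 untreated) and CNRIP1 (7.29 with ATO, 7.90 untreated), the ATO value fell short of the filter level. ACP1, the low molecular weight protein tyrosine phosphatase, was the exception in brightness, at 13.59 with ATO and 14.21 untreated, 1.54-fold lower. H2AC4, a histone H2A gene, read 10.23 with ATO and 10.87 untreated, and probes can be shared among near-identical histone genes.

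MANEAL, a Golgi mannosidase-like gene, read 9.25 with ATO and 9.89 untreated, and SMYD5, a SET-domain methyltransferase gene, 9.43 with ATO and 10.06 untreated. VPS50, a subunit of endosome tethering complexes, read 8.67 with ATO and 9.29 untreated. TMEM175, a lysosomal potassium and proton channel, DENND4C, an exchange factor for RAB GTPases, and the tetraspanin TSPAN12 made up the 14 genes over 1.5-fold lower, with ATO values of 9.19, 9.18 and 9.18 against untreated values of 9.80, 9.77 and 9.77. The remaining 6 of the 20 lowest were IFT57, PGD, ZNF141, FIGNL1, RNF217 and MTR, at -0.53 to -0.57. Of these MTR, the vitamin B12-dependent methionine synthase, was the brightest, at 10.77 with ATO and 11.30 untreated. In polysomal RNA 12 of the 20 lowest genes were below 0 and 4 were below -0.322, MANEAL (-0.51), FIGNL1 (-0.41), CEP162 (-0.39) and CNRIP1 (-0.35).

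**Figure D2:**
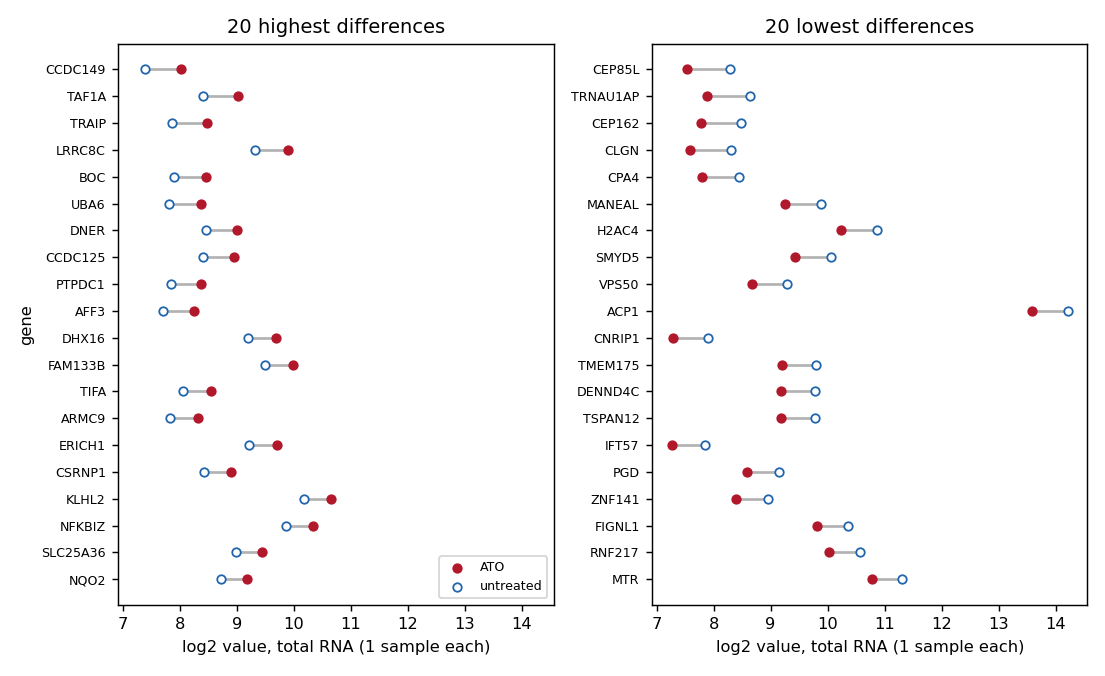
Log2 values in total RNA of the 20 coding genes with the highest (left) and the 20 with the lowest (right) ATO minus untreated difference; filled points are the ATO sample and open points the untreated sample, 1 sample each, with no error bars. Every pair lies less than 0.8 apart, and most of the genes lie below 10.

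Among genes too dim for the filter, larger differences occurred, and they are given by name and level only. The highest was CDH9, a cadherin gene, at 5.73 with ATO and 4.36 untreated, followed by CDC14C, DNAI4, CA2, DUSP19, DENND2C, ATP6V0D2, FBXL13, PSORS1C1 and PXT1. These 10 read 4.24 to 6.96 with ATO and 3.38 to 5.96 untreated. The lowest was ATP6V1G2, a proton pump subunit gene, at 5.57 with ATO and 6.69 untreated, followed by KCNJ13, PRAMEF27, STK32A, ST6GALNAC5, EFCAB10, POU5F1B, OR9A4, GZMK and ADRA2C. Those 10 read 3.25 to 5.90 with ATO and 4.10 to 6.77 untreated. At these levels nothing is drawn about expression.

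Heat shock genes stood above the bulk by small amounts. A list of heat shock factors, chaperones and co-chaperones held 43 genes, of which 19 were measured and the rest were not read. Of the 19 measured, 15 were past the filter, 13 of them above 0 (43.7% of all coding genes). Their median was 0.11, against -0.02 for all coding genes. Above 0.322 was 1 of 15 (2.61% of all coding genes), and none was below -0.322. HSF1, the factor that switches these genes on after protein damage, read 9.12 with ATO and 9.19 untreated.

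Of the cytosolic chaperones, HSPB1, the small heat shock protein HSP27, read 18.69 with ATO and 18.47 untreated. CACYBP, a co-chaperone that binds a ubiquitin ligase, read 17.38 with ATO and 17.19 untreated, and the HSP70 relative HSPA4L 16.01 with ATO and 15.82 untreated. All 5 HSP40 genes, whose products hand clients to HSP70, lay above 0. DNAJB5 differed most, at 9.02 with ATO and 8.68 untreated (0.34). DNAJA1 read 17.04 with ATO and 16.86 untreated, DNAJB2 9.92 with ATO and 9.80 untreated, DNAJB4 12.84 with ATO and 12.73 untreated, and DNAJB6 15.32 with ATO and 15.31 untreated. The nucleotide exchange factor HSPA4 (14.52 with ATO, 14.43 untreated) and the HSP90 gene HSP90AB1 (17.52 with ATO, 17.44 untreated) differed by less than 0.1. The mitochondrial chaperones lay close together, HSPA9 at 16.34 with ATO and 16.20 untreated, HSPE1 at 17.38 with ATO and 17.29 untreated, and HSPD1 at 17.25 with ATO and 17.17 untreated. Most of these genes are in the brightest of the 4 level groups, where the SD over all coding genes was 0.125 and the median 0. HSPA6, an HSP70 gene that is known for strict stress induction in human cells, read 14.52 with ATO and 14.57 untreated. It is close in sequence to other HSP70 genes, and on an array the signal of such copies cannot always be told apart. The other members, HSPB7, HSPB3, HSPA1L and HSPBAP1, were below the filter. In polysomal RNA the list's median was 0.12, with 11 of 15 above 0, and DNAJB2 was below -0.322 there (-0.58).

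Probe sets of pseudogenes named after heat shock genes differed more than the genes themselves, but the pseudogenes were dimmer. The median level with ATO was 9.91 for the pseudogenes and 16.01 for the genes. Over all coding genes the SD was 0.185 in the level group that holds 9.91 and 0.125 in the brightest. The share of level in the wider differences was not tested. Of 47 such pseudogene loci measured, 13 were past the filter, with a median of 0.21 and 10 of 13 above 0. For all 807 named genes that are not protein coding the median was 0.04, with 56.6% above 0. Above 0.322 were 6 of 13, where 8.67% of those 807 were. DNAJB1P1 read 11.29 with ATO and 10.74 untreated, HSPD1P1 12.29 with ATO and 11.84 untreated, and HSPD1P3 8.45 with ATO and 7.96 untreated. HSP90AB3P read 11.17 with ATO and 10.78 untreated, HSPA9P1 11.66 with ATO and 11.28 untreated, and HSPA8P8 9.76 with ATO and 9.42 untreated. The parent genes HSPD1, HSPA9 and HSP90AB1 differed by 0.08, 0.14 and 0.08, while the parents DNAJB1 and HSPA8 lie on chromosomes not analysed here. Pseudogene probes can match RNA of the parent gene, and their share in these values was not tested. This list was added after the data were seen. HSP90AA4P (-0.16) and HSPA8P9 (-0.11) lay below 0, and in polysomal RNA the list's median was 0.08.

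**Figure D3:**
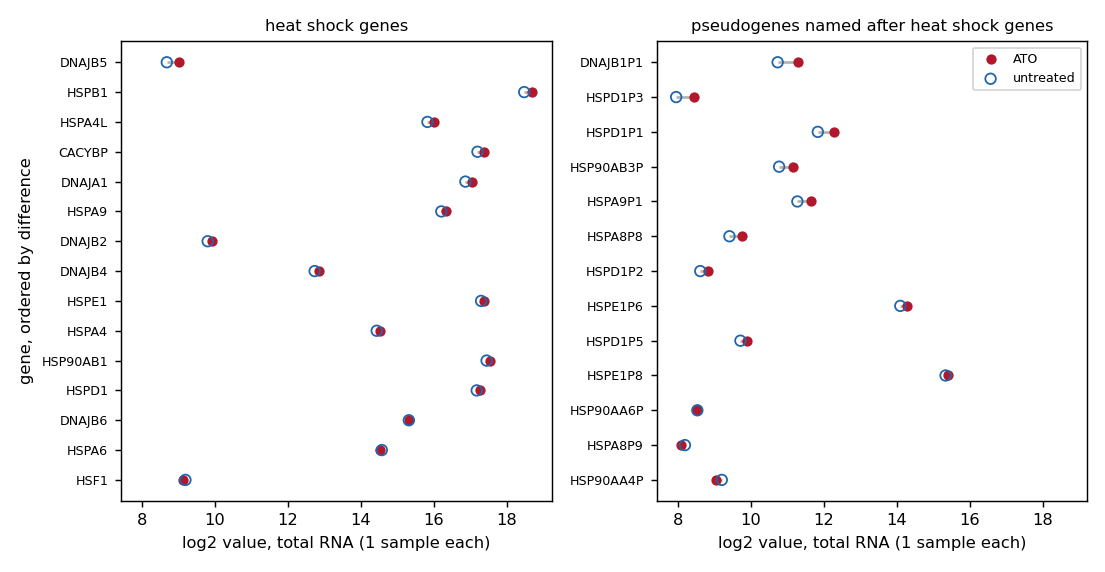
Log2 values in total RNA of the 15 heat shock genes (left) and the 13 pseudogenes named after heat shock genes (right) past the filter; filled points are the ATO sample and open points the untreated sample, 1 sample each. Gaps are small on the left, at most 0.34 (DNAJB5), and reach 0.55 (DNAJB1P1) on the right.

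The heat shock element, the site HSF1 binds, was looked for in the 250 bases before each gene's start (RefSeq promoters, GRCh38.p14), on both strands, as the 13-letter run of 3 alternating units in either arrangement. It was present in 0.439% of 27305 promoters and in 2 of the 14 heat shock genes with a promoter sequence, HSPA6 and DNAJB6, whose differences were -0.05 and 0.01. The promoter of HSPA6, shown because it holds the element that defines this response beside a difference near 0, is chr1:161524290-161524539 on the plus strand, with the element in capitals, 62 to 74 bases before the start.
HSPA6: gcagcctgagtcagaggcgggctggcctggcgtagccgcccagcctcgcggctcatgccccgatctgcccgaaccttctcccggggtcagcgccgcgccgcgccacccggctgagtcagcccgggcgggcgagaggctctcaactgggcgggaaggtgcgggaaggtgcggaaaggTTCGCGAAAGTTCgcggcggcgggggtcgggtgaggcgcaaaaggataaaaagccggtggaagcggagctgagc

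Genes of the integrated stress response were read by role. In this response eIF2α kinases raise translation of ATF4, and ATF4 in turn switches on amino acid synthesis and transport. Of 47 listed genes of this response 20 were measured and the rest were not read. All 20 were past the filter, 12 above 0, 7 below and 1 at 0, where 43.7% of all coding genes were above 0 and 54% below. The median was 0.10, and none was beyond 0.322 in either direction. The kinases themselves lay around 0. EIF2AK1, the haem-regulated kinase, read 14.57 with ATO and 14.69 untreated, EIF2AK2 13.41 with ATO and 13.30 untreated, and EIF2AK3, the kinase of the endoplasmic reticulum, 8.88 in both samples. ATF3, a factor induced by this pathway, read 9.84 with ATO and 9.89 untreated, and PPP1R15B, which returns eIF2α to its unphosphorylated state, stood at -0.02.

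Metabolic targets that were read had higher medians than the 2 factor and feedback genes (-0.035) and the 5 effectors (-0.06). These groups are small, and the SD across all coding genes was 0.175. The 5 genes of serine and folate-linked synthesis had a median of 0.21, namely PSAT1 (15.68 with ATO, 15.43 untreated), PSPH (9.96 with ATO, 9.71 untreated), PHGDH (12.99 with ATO, 12.78 untreated), MTHFD2 (15.91 with ATO, 15.76 untreated) and MTHFD1L (-0.08). Asparagine synthetase ASNS read 15.09 with ATO and 14.99 untreated, and CTH, which makes cysteine from cystathionine, 9.78 with ATO and 9.61 untreated. The amino acid transporters SLC7A11 (14.73 with ATO, 14.49 untreated), SLC6A9 (11.83 with ATO, 11.70 untreated) and SLC1A4 (13.10 with ATO, 13.04 untreated) were above 0 as well. Thus 9 of these 10 enzymes and transporters were above 0, where 60% of the whole list and 43.7% of all coding genes were. In polysomal RNA 4 of the 5 serine and folate-linked genes, 1 of ASNS and CTH, and 1 of the 3 transporters were above 0. The stress effectors had a median of -0.06, with VLDLR at 9.32 with ATO and 9.15 untreated, SESN2 at 12.03 with ATO and 11.93 untreated, and GADD45A (-0.06), EIF4EBP1 (-0.07) and STC2 (-0.09) below 0. In polysomal RNA the list's median was 0.065. There MTHFD2 (-0.36) and SLC6A9 (-0.41) were below -0.322 with ATO, ASNS was at -0.28 and SLC7A11 at 0.28.

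The CARE element bound by ATF4 with its partners, searched as TGATGNAA on both strands, was found in 3.19% of all promoters and in 4 of 15 list members with a promoter, ATF3, PPP1R15B, MTHFD1L and ASNS, whose median difference was -0.035. The 11 without it had a median of 0.13. The promoter of ASNS, the textbook example of this element, is chr7:97872409-97872658 on the minus strand, with the match in capitals.
ASNS: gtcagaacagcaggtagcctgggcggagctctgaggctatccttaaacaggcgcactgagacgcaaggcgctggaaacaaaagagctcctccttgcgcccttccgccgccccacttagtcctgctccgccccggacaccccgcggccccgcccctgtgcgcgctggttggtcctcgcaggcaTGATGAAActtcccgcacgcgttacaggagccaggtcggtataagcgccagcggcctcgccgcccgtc

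The NRF2 target genes that were read showed no common direction. NRF2, encoded by NFE2L2, switches on glutathione synthesis, NADPH production and detoxification, and is held down by KEAP1 and CUL3. Of 44 listed genes 18 were measured and the rest were not read. Of the 18, 17 were past the filter, 9 above 0 and 8 below (43.7% and 54% of all coding genes), with a median of 0.05. Above 0.322 was 1 (2.61% of all coding genes) and below -0.322 was 1 (4.75%). NFE2L2 itself read 12.88 with ATO and 12.94 untreated, and CUL3 stood at 0.06. The modifier subunit of the glutathione-making ligase, GCLM, read 13.00 with ATO and 12.91 untreated, and its catalytic subunit GCLC 10.78 with ATO and 10.80 untreated. SLC7A11, which imports cystine for glutathione and is shared with the ATF4 list, differed by 0.24. Of the other glutathione genes, GSTM3 was at 0.05, GSR at -0.04 and GSTA4 at -0.28.

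At the ends of the NRF2 list stood NQO2, which read 9.18 with ATO and 8.72 untreated, and PGD, an NADPH-producing enzyme of the pentose phosphate pathway, which read 8.58 with ATO and 9.14 untreated. Malic enzyme ME1, another NADPH source, read 11.54 with ATO and 11.65 untreated, and the peroxiredoxin PRDX1 16.26 with ATO and 16.44 untreated. The autophagy receptor SQSTM1 read 15.85 with ATO and 15.80 untreated. UGDH (0.13), PRDX6 (0.11), EPHX1 (0.07) and TKT (-0.04) lay between, and AKR1B10 was below the filter. In polysomal RNA the list's median was 0.06, with ME1 at 0.58 and SQSTM1 at 0.34 above 0.322. The antioxidant response element TGACNNNGC was present in 11.0% of all promoters and in 4 of 13 members with a promoter (GCLM, GSTA4, PGD and ME1), whose median difference was -0.195, against 0.05 for the 9 without it.

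Zinc and metal genes were led by an exporter and by the metal-sensing factor. MTF1, which binds zinc and switches on metallothioneins and SLC30A1, read 12.34 with ATO and 12.08 untreated. SLC30A1, the zinc exporter of the plasma membrane, read 13.20 with ATO and 12.87 untreated, above 0.322. All 5 exporters past the filter were above 0 (43.7% of all coding genes), the others being SLC30A9 (0.16), SLC30A6 (0.05), SLC30A5 (0.02) and SLC30A7 (0.01). The 6 importers had a median of -0.065. SLC39A1 was below -0.322, at 8.86 with ATO and 9.20 untreated, SLC39A8 read 9.92 with ATO and 10.11 untreated, SLC39A10 was at -0.15, and SLC39A4 (0.07), SLC39A7 and SLC39A14 (0.02 each) were just above 0. Over the 12 genes past the filter, of 16 measured, the median was 0.02. Of the 6 importers 4 were below 0 in polysomal RNA and 3 below -0.322 (7.90% of all coding genes). SLC39A8 (-0.94 in polysomal RNA) and SLC39A1 (-0.57) were the 2 importers below 0 in both fractions. MTF1 stood at -0.26 in polysomal RNA and SLC30A1 at 0.27. Metallothionein genes are on a chromosome not analysed here. Of 2 pseudogenes named after them, added after the data were seen, MT1XP1 read 16.52 with ATO and 16.20 untreated, and MT2P1 18.79 with ATO and 18.75 untreated. Probes of these pseudogenes, too, can match RNA of the parent genes, and its share was not tested.

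The metal response element bound by MTF1, searched as TGCACNC or TGCGCNC on both strands, is a short motif that 24.7% of all promoters hold. In the metal list 2 of 10 members with a promoter held it, SLC30A1 and SLC30A6. The promoter of SLC30A1, the member standing highest in this list, is chr1:211579162-211579411 on the minus strand, with the match, which reads on the opposite strand, in capitals 43 to 49 bases before the start.
SLC30A1: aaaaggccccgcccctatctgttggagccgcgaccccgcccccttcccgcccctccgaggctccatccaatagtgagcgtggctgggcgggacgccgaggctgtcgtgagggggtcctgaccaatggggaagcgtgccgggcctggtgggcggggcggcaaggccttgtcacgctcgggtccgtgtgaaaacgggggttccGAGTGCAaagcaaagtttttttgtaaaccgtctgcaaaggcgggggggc

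Selenoprotein genes and genes of PML bodies and SUMO had medians below that of all coding genes. In the selenoprotein list 10 of 14 measured members were past the filter, 2 above 0 and 7 below (43.7% and 54% of all coding genes). The median was -0.145, and 3 were below -0.322 (4.75% of all coding genes). These 3 all belong to the machinery that supplies or inserts selenocysteine. Besides TRNAU1AP they were SCLY, selenocysteine lyase (8.34 with ATO, 8.72 untreated), and SEPSECS, which makes selenocysteine on its tRNA (8.58 with ATO, 8.91 untreated). The fourth, SECISBP2, which reads the insertion signal in the mRNA, was at 10.77 with ATO and 10.69 untreated. The 6 selenoprotein genes themselves had a median of -0.08, with the glutathione peroxidase GPX1 at 13.45 with ATO and 13.62 untreated, SELENOK at -0.24, SELENOI at -0.12, SELENOF at -0.04, GPX3 at 0 and SELENON at 0.02. The 3 low machinery genes are in the dimmest of the 4 level groups. In polysomal RNA SCLY stood at -0.42, SEPSECS at -0.18 and TRNAU1AP at 0.08.

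PML itself was not analysed here. Of 12 measured genes of PML bodies and the SUMO pathway 11 were past the filter, 4 above 0 and 7 below (43.7% and 54% of all coding genes). Their median was -0.23 in total RNA and 0 in polysomal RNA. DAXX, a histone chaperone that resides in PML bodies, read 10.26 with ATO and 10.64 untreated. SENP7, a protease that trims SUMO chains, read 8.76 with ATO and 9.14 untreated, and SP140L, a relative of the PML body protein SP100, 8.55 with ATO and 8.89 untreated. These 3 of 11 were below -0.322 (4.75% of all coding genes). RANBP2, a SUMO ligase of the nuclear pore (-0.29), the SUMO protease SENP5 (-0.25) and the SUMO ligase PIAS3 (-0.23) followed. SENP6 (-0.04) and SP100 (0.01) lay near 0. RNF4, the ubiquitin ligase that recognises SUMO chains on PML after arsenic, read 13.48 with ATO and 13.43 untreated, and SP110 and the kinase HIPK2 stood at 0.07 and 0.10. Of the 6 genes at or below -0.23, only RANBP2 and PIAS3 were below 0 in polysomal RNA.

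NF-kB genes were split about 0, with a few of the higher stress values among them. Of 25 measured members 14 were past the filter, 7 above 0 and 6 below (43.7% and 54% of all coding genes), with a median of 0.06. Above 0.322 were 2 of 14 (2.61% of all coding genes). The factors NFKB1 (-0.06) and REL (-0.01) lay near 0. NFKBIZ differed by 0.47, and PTGS2, the inducible cyclooxygenase, read 10.50 with ATO and 10.15 untreated. TNFAIP3, which switches NF-kB signalling off, read 11.64 with ATO and 11.33 untreated. Chemokines were split, with CXCL8 at 16.75 with ATO and 16.61 untreated and CCL20 at 0.14, but CXCL1 at -0.08. CFLAR, which blocks caspase-8, stood lowest, at 11.71 with ATO and 11.97 untreated, and TNIP2 was at -0.19. In polysomal RNA TNFAIP3 (0.34) and PTGS2 (0.31) were again above 0, and NFKBIZ was at -0.04. A kappaB motif was found in 6.60% of all promoters and in 6 of 13 list members with a promoter, NFKB1, REL, NFKBIZ, TNFAIP3, CXCL1 and CCL20, whose differences ran from -0.08 to 0.47. The promoter of TNFAIP3, shown for its pair of adjacent matches (in capitals, 46 to 67 bases before the start), is chr6:137867009-137867258 on the plus strand.
TNFAIP3: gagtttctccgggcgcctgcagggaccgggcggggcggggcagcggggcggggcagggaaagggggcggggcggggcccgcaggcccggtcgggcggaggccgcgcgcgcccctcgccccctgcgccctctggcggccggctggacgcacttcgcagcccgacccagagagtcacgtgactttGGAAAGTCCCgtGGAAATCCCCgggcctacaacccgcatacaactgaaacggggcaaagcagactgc

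Other stress lists stayed near the median of all genes. Immediate early genes had a median of -0.02 over 20 genes (0.0082 after the loess subtraction), none beyond 0.322 either way. EGR1 read 14.25 with ATO and 14.52 untreated, JUN, an AP-1 subunit, 11.56 with ATO and 11.73 untreated, and FOSL2, another AP-1 subunit, 8.48 with ATO and 8.22 untreated. KLF10 was at 0.25, TRIB1 at 0.08, DUSP4 at -0.14 and MYC at 0.01. For stress MAP kinases (7 genes, median 0.03) only MAP3K4 was beyond 0.322 either way, at 9.08 with ATO and 9.42 untreated, and MAP3K2 was highest (0.15). Genes that handle arsenic and thiols had a median of -0.06 over 11 genes, with GLRX2 highest (0.10) and GSTA4 (-0.28), GSTM2 and GLRX (-0.16 each) lowest.

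Endoplasmic reticulum genes spread both ways around a median of -0.03 over 21 genes, 2 above 0.322 and 1 below -0.322 (2.61% and 4.75% of all coding genes). The oxidase ERO1B read 8.77 with ATO and 8.36 untreated, and SEC24D, a coat subunit of export vesicles, 12.90 with ATO and 12.52 untreated. SEC63, a translocon partner, read 13.23 with ATO and 12.92 untreated. WFS1, a membrane protein of the reticulum, read 8.33 with ATO and 8.69 untreated, and MANF, a secreted protein induced by unfolded proteins, 10.57 with ATO and 10.82 untreated. The sensors ATF6 (0.04) and ATF6B (-0.09) lay near 0. For the TRiC chaperonin and prefoldin (7 genes, median 0.08), PFDN1 (12.78 with ATO, 12.55 untreated) and PFDN2 (11.66 with ATO, 11.48 untreated) were highest and CCT5 lowest (-0.08).

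p53 targets had a median of -0.035 over 14 genes, 4 above 0 and 10 below (43.7% and 54% of all coding genes). The arrest gene CDKN1A was at 0.02 and MDM4 at 0.03, while TP53I3, a quinone reductase-like enzyme, read 9.42 with ATO and 9.84 untreated, and FUCA1, a lysosomal fucosidase, 8.61 with ATO and 8.94 untreated. Of 13 apoptosis genes 11 were below 0 (54% of all coding genes), by small amounts, with a median of -0.07 and none beyond 0.322 either way. BIRC6, a caspase inhibitor, was the 1 gene above 0 (11.51 with ATO, 11.37 untreated), and CFLAR, BNIP1 (-0.20) and CASP2 (-0.18) were lowest, with MCL1 at -0.07.

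**Figure D4:**
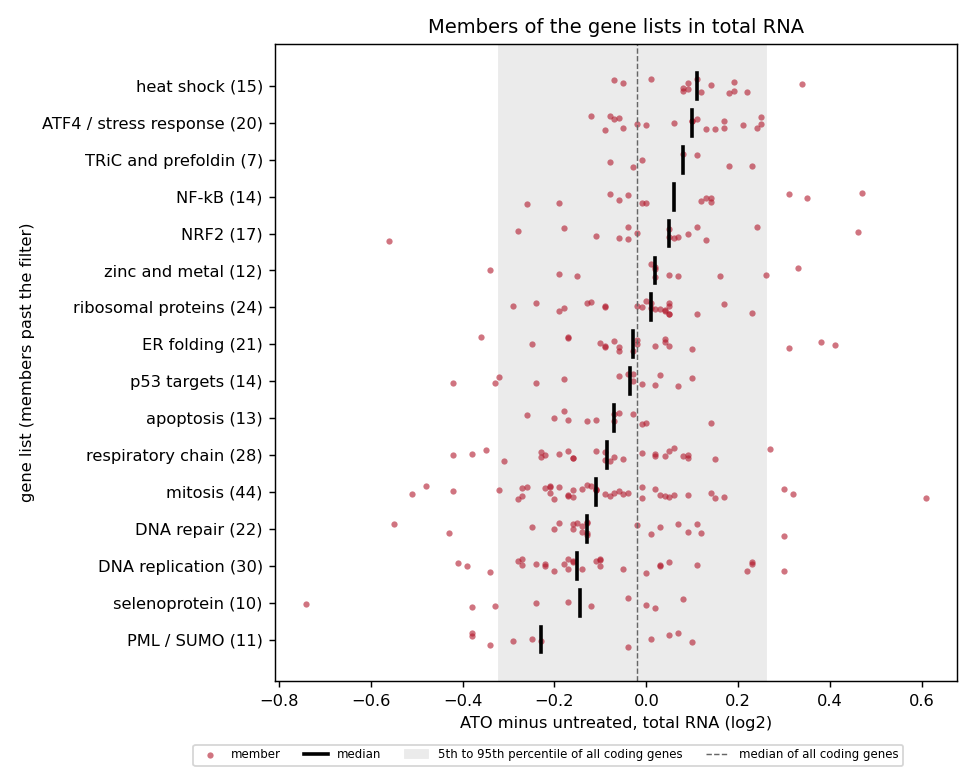
ATO minus untreated log2 difference in total RNA (horizontal axis) of each member past the filter of 16 gene lists (rows, with the number of members), with the median of each list as a black bar and the 5th to 95th percentile of all coding genes in grey. Medians run from 0.11 (heat shock) to -0.23 (PML / SUMO), and most members lie inside the grey band.

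Genes of the cell cycle were more often below 0 than above it. For DNA replication 21 of 30 genes were below 0 (54% of all coding genes), with a median of -0.15, and 3 were below -0.322 (4.75%). These were the exonuclease EXO1 (11.64 with ATO, 12.05 untreated), the factor E2F5 (10.13 with ATO, 10.52 untreated) and the clamp loader subunit RFC2 (11.40 with ATO, 11.74 untreated). The 15 genes of origins and the replicative helicase had a median of -0.16, with CDC7, the kinase that fires origins, highest (9.83 with ATO, 9.53 untreated). For DNA repair 15 of 22 were below 0, with a median of -0.13. FIGNL1, a recombination factor, read 9.81 with ATO and 10.36 untreated, and the mismatch repair gene MSH6 10.07 with ATO and 10.50 untreated, while NBN, part of the double-strand break sensor, read 11.01 with ATO and 10.71 untreated. In polysomal RNA the medians were -0.05 for replication and -0.015 for repair.

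For mitosis 32 of 44 genes were below 0 (54% of all coding genes), with a median of -0.11 in total and -0.11 in polysomal RNA. Below -0.322 were 3 (4.75% of all coding genes) and above 0.322 was 1 (2.61%). The 13 kinases and checkpoint genes had a median of -0.17 and 12 of them lay below 0, all but TRAIP. TTK, the spindle checkpoint kinase, read 12.24 with ATO and 12.66 untreated. Of the motors and spindle genes 8 of 9 were below 0. DEPDC1 read 11.64 with ATO and 12.15 untreated, and HMMR, a spindle assembly factor, 9.84 with ATO and 10.32 untreated. Kinetochore genes (12 genes, median -0.04) held CENPF, which read 12.71 with ATO and 12.39 untreated, and the chromosomal passenger gene CDCA8 read 10.07 with ATO and 9.77 untreated. The CHR element TTTGAA, through which many late cell cycle genes are repressed and activated, was present in 13.6% of all promoters and in 15 of 38 mitosis genes with a promoter (39.5%), whose median difference was -0.12, against -0.09 for the 23 without it. The promoter of HMMR, shown for its tandem CHR matches (in capitals, 17 to 28 bases before the start), is chr5:163460382-163460631 on the plus strand.
HMMR: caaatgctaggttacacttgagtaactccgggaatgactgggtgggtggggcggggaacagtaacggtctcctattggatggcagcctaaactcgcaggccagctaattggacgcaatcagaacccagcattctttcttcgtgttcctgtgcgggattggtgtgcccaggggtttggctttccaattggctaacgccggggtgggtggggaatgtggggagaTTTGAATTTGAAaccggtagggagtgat

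Histone genes, whose RNA accumulates in S phase, had a median of -0.04 over 43 replication-dependent members, 26 below 0 (54% of all coding genes). Below -0.322 were 5 (4.75% of all coding genes) and above 0.322 were 2 (2.61%). H3C15 (14.80 with ATO, 15.32 untreated) and the linker histone H1-4 (14.22 with ATO, 14.69 untreated) followed H2AC4, and at the other end stood H4C9 (8.26 with ATO, 7.80 untreated) and H3C1 (8.56 with ATO, 8.15 untreated). Genes of the respiratory chain and ATP synthase had a median of -0.085 over 28, 18 below 0 (54% of all coding genes). ATPAF1, an ATP synthase assembly factor, read 9.42 with ATO and 9.84 untreated, cytochrome c1, CYC1, 12.30 with ATO and 12.68 untreated, and the complex I subunit NDUFB3 13.46 with ATO and 13.81 untreated. COX6C, a subunit of complex IV, was highest (14.51 with ATO, 14.24 untreated). By complex, ATP synthase genes had the lowest median (-0.22 over 5) and complex IV the highest (0.055 over 4).

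The translation machinery differed little. Cytosolic ribosomal proteins had a median of 0.01 over 24 genes (-0.055 after quantile normalization), none beyond 0.322 either way, from RPL29 (14.68 with ATO, 14.97 untreated) to RPL24 (16.60 with ATO, 16.37 untreated). Initiation factors had a median of 0.035 over 16, with EIF2A lowest (10.67 with ATO, 10.97 untreated). The cap-binding protein gene EIF4E read 14.22 with ATO and 14.14 untreated, and the kinase gene MKNK1, whose product phosphorylates it, was at -0.06. Aminoacyl-tRNA synthetases had 0.08 over 10, with RARS1 at 12.27 with ATO and 12.56 untreated. The medians were 0.05 for stress granule proteins (11 genes), -0.03 for mitochondrial ribosomal proteins (36) and 0 for the proteasome (13).

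Among the remaining lists, cilium and centrosome genes had a median of -0.015 over 24 (0.005 with samples centred), with 4 of the 24 below -0.322 (4.75% of all coding genes), CEP85L, CEP162, IFT57 (7.27 with ATO, 7.84 untreated) and CEP78 (-0.44), and 1 above 0.322, IFT172 (8.47 with ATO, 8.14 untreated). The median level of the list was 9.265 with ATO and 9.40 untreated. Zinc finger genes named ZNF had -0.05 over 61, with 5 below -0.322 and 2 above 0.322 (4.75% and 2.61% of all coding genes). The lowest was ZNF141 (8.39 with ATO, 8.95 untreated), and the 2 above 0.322 were ZNF678 (0.42) and ZNF318 (0.38). For cholesterol genes (-0.09 over 11) the regulator INSIG1 was highest (10.08 with ATO, 9.86 untreated) and the sterol carrier gene STARD4 lowest (9.74 with ATO, 10.05 untreated). Of glycolysis and hypoxia genes (-0.04 over 15) PGM2 was lowest (9.33 with ATO, 9.76 untreated), and of autophagy genes (-0.04 over 15) ATG7 was highest (10.19 with ATO, 9.83 untreated) and the lysosome regulator MITF lowest (9.35 with ATO, 9.72 untreated). Interferon-stimulated and MHC class I genes had -0.09 over 21, none beyond 0.322 either way, and matrix and integrin genes 0.04 over 17.

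Non-coding RNA held the larger differences. Among the 807 named genes past the filter that are not protein coding, the median was 0.04 and the SD 0.25. Over 1.5-fold higher were 9 (1.12%) and over 1.5-fold lower 24 (2.97%), and 3 were at least 2-fold lower. The 24 were mostly 5S ribosomal RNA loci, and without these, 9 were higher and 6 lower of 780. Above 0.322 were 70 (8.67%) and below -0.322 were 54 (6.69%), with 56.6% above 0 and 41.6% below it. Over coding and other named genes together, 4679 in all, 0.278% were more than 1.5-fold higher and 0.812% more than 1.5-fold lower, 3.65% were above 0.322 and 5.09% below -0.322, and 45.9% lay above 0 and 51.9% below it.

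The 5S ribosomal RNA, made by RNA polymerase III from a gene cluster on chromosome 1, is joined in the genome by many scattered pseudogenes. Of 248 named 5S loci 27 were past the filter, with a median of -0.59. All 27 were lower with ATO, 23 of them below -0.322 and 18 over 1.5-fold lower. Of the 807 named genes that are not protein coding, 5S loci included, 41.6% were below 0. Below -0.322 were 6.69% of them, and over 1.5-fold lower 2.97%. Without the 5S loci, 31 of 780 were below -0.322 and 6 over 1.5-fold lower. For the gene probe sets RNA5S11 to RNA5S16 the values were identical, 15.98 with ATO and 16.57 untreated, and likewise for RNA5S7, RNA5S10 and RNA5S17, at 16.30 with ATO and 16.93 untreated. Counting loci with identical values in all 4 samples once left 20, with a median of -0.60 and 11 over 1.5-fold lower. RNA5S9 read 14.72 with ATO and 15.66 untreated. Of the pseudogenes, RNA5SP202 read 16.20 with ATO and 17.20 untreated, RNA5SP85 8.43 with ATO and 9.40 untreated, and RNA5SP149 13.32 with ATO and 14.24 untreated. The smallest differences were those of RNA5SP251 (-0.14), RNA5SP77 (-0.18) and RNA5SP134 (-0.26). These probe sets share sequence and are not independent readings of separate RNAs. In polysomal RNA the 5S median was 0.05, with 19 of 27 above 0, where 1763 of 3872 coding genes were. With no filter, over all 248 loci, most of them dim, the median in total RNA was -0.125. The small RNA classes were split up after the data were seen, and how well RNAs this short were recovered in each purification was not tested.

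Other RNAs of polymerase III differed in both directions. RMRP, the RNA of ribonuclease MRP, which processes ribosomal RNA, was lower in total RNA, at 10.47 with ATO and 11.49 untreated, but higher in polysomal RNA, at 6.17 with ATO and 5.09 untreated. U6, the catalytic small nuclear RNA of the spliceosome, was represented by 33 loci past the filter of 655. Their median was 0.20, with 28 of 33 above 0 (56.6% of the 807 named genes that are not protein coding). With no filter the U6 median was 0.05. Probe sets of such copies can share sequence, so they are not taken as independent readings. RNU6-47P read 14.35 with ATO and 13.77 untreated, and RNU6-1304P and RNU6-1104P differed by 0.62 each, while RNU6-637P (-0.36) and RNU6-232P (-0.34) were lowest. The brightest U6 locus, RNU6-33P, read 14.94 with ATO and 14.81 untreated. For 7SK, 8 of 11 loci were above 0 (56.6% of the 807), with a median of 0.17 in total RNA and 0.56 in polysomal RNA. The 2 brightest loci lay below 0 in total RNA, the gene RN7SK itself at 19.02 with ATO and 19.08 untreated and RN7SKP203 at 15.28 with ATO and 15.33 untreated, so the loci above 0 were the dimmer, pseudogene ones. 7SL, the RNA of the signal recognition particle, had a median of 0.035 over 48 loci, and 1 of them, RN7SL671P, gave the lowest value of all named genes past the filter, 9.23 with ATO and 10.39 untreated. Of the 4 Y RNA loci past the filter 3 were below 0, RNY4 (8.92 with ATO, 9.18 untreated), RNY1 (-0.09) and RNY3P1 (-0.04), and RNY3 read 17.28 with ATO and 17.03 untreated.

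U1, a small nuclear RNA made by RNA polymerase II, had a median of 0.14 over 23 loci, 18 above 0 (56.6% of the 807). These copies, too, are not taken as independent readings. The brightest, RNU1-3 and RNVU1-18, shared values of 18.39 with ATO and 18.25 untreated. RNVU1-1 was highest (14.27 with ATO, 13.80 untreated) and RNU1-138P lowest (8.64 with ATO, 9.34 untreated). SnoRNAs and Cajal body RNAs had a median of -0.08 over 7 of 108 loci, from SCARNA2 (9.87 with ATO, 10.15 untreated) to SNORD82 (9.69 with ATO, 9.56 untreated). MicroRNA loci had -0.12 over 29 of 597, with MIR8485 (10.00 with ATO, 9.31 untreated), MIR3135B (0.48) and MIR548AQ (0.33) highest and MIR1471 (-0.42), MIR6068 (-0.26) and MIR3916 (-0.25) lowest. These probe sets may read longer precursor or host transcripts as well as the microRNA.

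**Figure D5:**
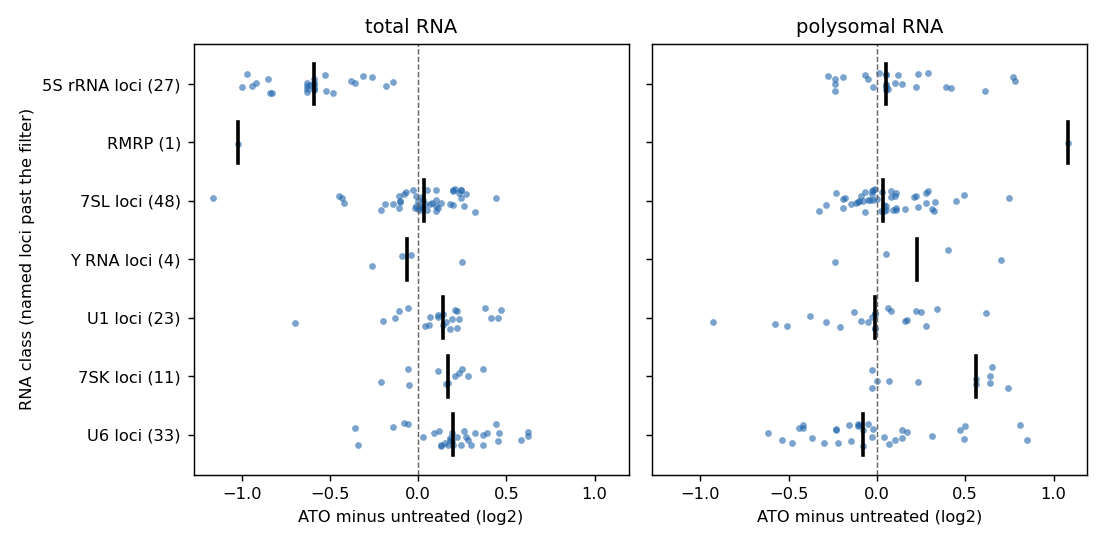
ATO minus untreated log2 difference of named small RNA loci past the filter in total RNA (left) and polysomal RNA (right), by class (rows, with the number of loci); black bars are class medians. In total RNA all 27 5S loci lie left of 0 (41.6% of the 807 named genes that are not protein coding), with a median of -0.59. In polysomal RNA their median is 0.05, while RMRP is at -1.02 on the left and 1.08 on the right.

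Long non-coding RNAs gave few large values. Of 58 LINC, antisense and host genes past the filter, with a median of 0.025, STARD4-AS1 was lowest (7.47 with ATO, 8.28 untreated), and STARD4, after which it is named, had the same sign. SNHG33, a snoRNA host gene, read 8.58 with ATO and 9.20 untreated, and CADM3-AS1 was at -0.50. The highest were LINC01419 (9.99 with ATO, 9.49 untreated), LINC01347 (0.44) and CCDC18-AS1 (0.42). How the array treats strand was not checked here, so an antisense RNA and its partner may not be fully separate. Ferritin heavy chain pseudogenes, whose parent stores iron, had a median of 0.195 over 8, with FTH1P23 at 15.69 with ATO and 15.40 untreated. In polysomal RNA their median was 0.385, with 8 of 8 above 0, where 1763 of 3872 coding genes were. FTH1P4 (-0.29) and FTH1P5 (-0.26) lay below 0 in total RNA. Pseudogenes named after genes of the mitochondrial genome had a median of 0.11 over 11. Among them MTND2P28 read 17.89 with ATO and 17.43 untreated, and MTND1P23 19.05 with ATO and 18.94 untreated. Probes of the ferritin and mitochondrial pseudogenes, too, can match RNA of the parent genes, and its share in these values was not tested.

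Gene span, the distance from start to end in the RefSeq annotation, moved with the difference to a small degree. In 5 equal groups of coding genes from short to long, medians were -0.04, -0.05, -0.02, 0 and 0.01, and the share below -0.322 was 6.32% in the shortest group and 3.35% in the longest. By chromosome, medians lay between -0.03 and -0.01, and the share below -0.322 ran from 2.95% of 407 genes on chromosome 7 to 9.52% of 63 genes on chromosome 9, which the table covers in part. Probe sets without a symbol in the table used here, 1982 past the filter, had a median of 0.04, with 32 over 1.5-fold higher and 32 lower, and ran from -1.35 to 1.76.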

How the data were processed

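RNA of LN229 cells was profiled on an Affymetrix array in 4 samples, 1 per group. Per the labels' protocols, polysomes were separated on a sucrose gradient, both RNA fractions were purified with a Qiagen AllPrep kit, and cDNA was labelled with the GeneChip WT reagent kit. Technical triplicates were pooled and analysed in the Transcriptome Analysis Console, per the series' design text. Affymetrix Expression Console is named in the submitters' processing notes. Not given in the sources used here are its version, how probes were summarised and normalized, and the build. The authors deposited log2 values with 2 decimals, which were not rescaled. Their range was 2.16 to 19.56, with 406 probe sets over 16 in some sample.

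Probe sets were named by the platform annotation (16127 with 1 symbol, 419 with several, 48982 with none in the table used here), 10775 were matched by Entrez identifier to RefSeq genes of GRCh38.p14 for gene type and promoters, and 6 named probe sets were left out because the chromosomes of identifier and RefSeq gene differed. A gene was read from its brightest probe set by mean over the 4 samples. Other chromosomes were not analysed here. The filter, 7.80, is the median of that mean over coding genes.

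With 1 sample per group no test was made. Genes past 1.5-fold and past 0.322 on the log2 scale were counted, and lists were described by medians and counts. The genes named are the 20 highest and 20 lowest coding genes, all past-filter members of the heat shock, ATF4, NRF2 and metal lists, the 3 highest and 3 lowest of other lists with members that order the account by role (fewer where space did not allow), and the 10 highest and 10 lowest below the filter by name and level. Members and lists were chosen with earlier results of these data known; the split of small RNAs into classes, the pseudogene lists and the members named from them were chosen after the data were seen. Alternatives were centring, quantile normalization, other filters, an offset, the mean over probe sets, all named genes, a 2-fold threshold and loess subtraction. Steps were tested on simulated data and run in Python 3.11.15 with pandas 2.3.3, numpy 2.4.6 and statsmodels 0.14.6. No sample column was left unused.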

Additional observations from a re-analysis of the deposited data

Results flagged for a closer look

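Each result here differed in direction between the fractions, with ATO minus untreated on 1 side of 0 in total RNA and on the other in polysomal RNA. For the single genes the gap between the fractions was also over 1.5-fold. The coding genes were taken only from the 20 highest and 20 lowest in total RNA, so others can meet the same terms. Of all coding genes past the filter, 51.2% had the same sign in both pairs. The differences between the fractions were not tested, since each fraction has 1 sample per group. Above 0 in total RNA and below it in polysomal RNA were TAF1A (0.61 and -0.03), LRRC8C (0.59 and -0.09), UBA6 (0.56 and -0.16), DNER (0.55 and -0.28), DHX16 (0.50 and -0.10), TIFA (0.49 and -0.55) and ERICH1 (0.48 and -0.13). TIFA, an adaptor of NF-kB signalling, stood farthest apart of these 7.

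Below 0 in total RNA and above it in polysomal RNA were CEP85L (-0.76 and 0.14), TRNAU1AP (-0.74 and 0.08), ACP1 (-0.62 and 0.16), TMEM175 (-0.61 and 0.27), DENND4C (-0.59 and 0.07), IFT57 (-0.57 and 0.13), PGD (-0.56 and 0.07) and ZNF141 (-0.56 and 0.22). Of these 8, ACP1 alone is in the brightest of 4 level groups of coding genes.

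RMRP, the RNA of ribonuclease MRP, was at -1.02 in total RNA and 1.08 in polysomal RNA, where both of its levels, 6.17 with ATO and 5.09 untreated, lay below the filter level. The median of the 5S ribosomal RNA loci was -0.59 in total RNA and 0.05 in polysomal RNA.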

How the results depend on the processing

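No paired analysis was possible because each group has 1 sample. The reported counts of higher and lower coding genes were 4 and 14 at 1.5-fold, and 101 and 184 at 0.322. The counts depended on the filter. With no filter they were 71 and 82 at 1.5-fold and 441 and 625 at 0.322. A filter at the 75th percentile left 0 and 2 at 1.5-fold and 15 and 34 at 0.322. An offset of 32 on the linear scale left 0 higher and 8 lower at 1.5-fold. With all named genes, 13 were higher and 38 lower, with 171 above 0.322, and at a 2-fold threshold the counts were 0 and 0. The share of higher genes among those beyond 0.322 was 35.4% as reported, 45.3% with centred samples and 49.6% after the loess subtraction.

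Medians of 46 lists under up to 8 settings gave 362 values. Of these, 12 changed sign, 4 kept their sign or reached 0 but moved by 0.1 or more, and 346 did neither; 33 lists kept their sign under every setting. With no filter, medians moved to -0.01 for microRNA loci, -0.125 for 5S loci, 0.05 for U6 loci and 0 for 7SK loci, and changed sign to -0.09 for ferritin pseudogenes, -0.045 for pseudogenes of the mitochondrial genome and 0.005 for small nucleolar RNAs. Signs also changed for microRNA loci under the 75th-percentile filter (0.12) and small nucleolar RNAs with the mean over probe sets (0.07). Lists with medians near 0 changed sign with the scaling. Ribosomal proteins went to -0.055 by quantile normalization and -0.0355 after the loess subtraction. The list of MNK, eIF4E and eIF4E-sensitive mRNAs, at -0.01 as reported, went to 0.01 with centred samples and 0.0098 after the loess subtraction. Cilium genes went to 0.005 and 0.0121 under those settings, and immediate early genes to 0.0082 after the loess subtraction. The causes were not tested. The heat shock median ranged from 0.10 to 0.13, and that of PML bodies and the SUMO pathway from -0.23 to -0.135. All settings reuse the same 2 samples, so they do not measure the error between cultures.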
